A study of Mus musculus with 25 samples.

Results

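Tumors and untreated livers of mice were compared by RNA sequencing: 6 tumors from mice that had been given the carcinogen diethylnitrosamine and fed a western-style diet (DEN-T-WD) were set against 3 livers of mice that had received neither (nonDEN-L-CD). These 9 samples, taken by their group labels, are 9 of the 25 samples of the study, which also holds 4 livers of untreated mice on the western diet (nonDEN-L-WD), 4 livers of carcinogen-treated mice on the control diet (DEN-L-CD) and 8 peritumoral livers (DEN-PT-WD). All mice were male C57BL/6J. Diethylnitrosamine (DEN), which liver enzymes convert into a DNA-alkylating agent, was injected once into the peritoneum at 25 mg/kg when the mice were 2 weeks old, and the nonDEN mice were left untreated. The western diet (WD, AIN-76A) or the control diet (CD, AIN-93G) was given from weaning until the tissue was taken at 36 weeks of age or later. Carcinogen, diet and tissue all differ between the compared groups, so their parts cannot be told apart in this comparison. The labels do not say whether the tumors came from separate mice, and the p-values therefore measure only the spread between these samples.

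The liver's hepatocytes make most plasma proteins, clear drugs and ammonia, and divide these tasks along the lobule between the portal tract and the central vein. In male mice, the pulsed release of growth hormone keeps a set of male-biased liver genes high and a set of female-biased genes low. Hepatocellular tumors of this model commonly carry activating changes in the Ras and MAP kinase pathway, and liver tumors in general often express genes of the fetal liver again and divide. In a whole piece of tissue, more cells of a type and more RNA per cell cannot be told apart.

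The deposited expected counts, which are the reads assigned to each gene, summed to between 26570081 and 28278208 in the nonDEN-L-CD livers and between 21530083 and 31410005 in the tumors. Values below are normalized counts, that is, counts divided by each library's size and normalization factor and scaled to the mean library. Fold changes are log2 differences of DEN-T-WD minus nonDEN-L-CD ± SE from edgeR's quasi-likelihood fit over all 25 samples. The SE is the size of the fold change divided by the square root of the test's F statistic. It is derived from the test and is not a separate estimate. A gene was called where the Benjamini-Hochberg adjusted p was at most 0.05 and the log2 fold change at least 1 in size. Tumor 5 stood apart from the other tumors: it lay far outside their range in 1755 of 15625 genes (11.2%, by Dixon's gap test) where the other tumors did so in 0.454 to 0.774%. Control liver 1 differed from control livers 2 and 3 in acute phase and metallothionein genes. There it was control livers 2 and 3 that lay above the livers of the other non-tumor groups. Pancreatic enzyme transcripts were found in control livers 1 and 3 and tumors 2 and 6. All 9 samples expressed the hepatocyte genes Alb, Ttr and Hnf4a, and their levels are given with the other hepatocyte genes.

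Of 15625 genes tested, 3168 were called (20.3%), of which 2259 (14.5%) were higher in the tumors and 909 (5.82%) lower. Without tumor 5 the numbers were 2137 higher and 942 lower, and without control liver 1 they were 2162 and 942. With no minimum fold change 54% of genes passed the adjusted p, and the normalized counts of the 6 and the 3 samples did not overlap in 42%.

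**Figure D1:**
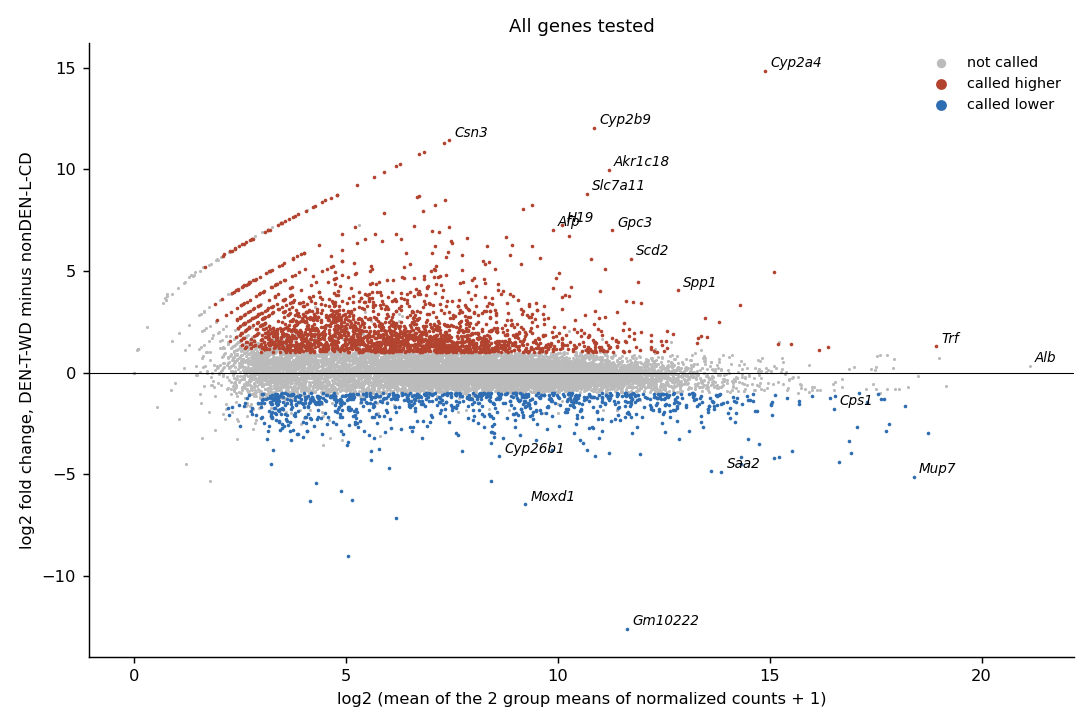
Each point is a gene: the x axis is the log2 of the mean of both group means of normalized counts plus 1, and the y axis the fitted log2 fold change of DEN-T-WD (n = 6) minus nonDEN-L-CD (n = 3). The 2259 genes called higher and the 909 called lower are colored, and the curved rows of points at the upper left are genes with no or almost no counts in the control livers, whose fitted value depends on the prior count.

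The 2 largest increases among genes with at least 100 normalized counts were those of Cyp2a4 and Cyp2b9, cytochrome P450 genes that male livers normally keep silent. Cyp2a4, a testosterone hydroxylase, had 1.17, 2.3 and 2.29 normalized counts in the 3 control livers and 50338 to 74558 with a median of 60935 in the tumors. The control values lie at or under the floor of 3 counts per library, so the increase was at least 17468-fold (adjusted p = 1.4e-06). Its level in the tumors was 2272 ± 447 TPM (mean ± SD, n = 6), a unit that divides counts by transcript length and scales each sample to a fixed total. Cyp2b9 was at 1.17, 1.15 and 0 in the control livers and at 114 to 6218 with a median of 4178 in the tumors, at least 1077-fold higher, with its lowest value in tumor 5. Cyp2b13 had no count in any control liver and 8.11 to 647 in the tumors, at least 91.4-fold higher.

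Because Cyp2a4 is nearly identical to the coumarin 7-hydroxylase gene Cyp2a5, which was expressed in all samples, the bases that set them apart are shown. Of 1482 coding bases in 9 exons of the GENCODE vM21 annotation (GRCm38), 23 differed, and 38% of the 50-base words of Cyp2a4 transcripts also occurred in another gene, so reads in the shared stretches could be assigned to either. The 2 lines are exon 4, at chr7:26308928-26309088 (plus strand) for Cyp2a4 and chr7:26837091-26837251 (plus strand) for Cyp2a5, with the bases that differ in capitals.
Cyp2a4 exon 4: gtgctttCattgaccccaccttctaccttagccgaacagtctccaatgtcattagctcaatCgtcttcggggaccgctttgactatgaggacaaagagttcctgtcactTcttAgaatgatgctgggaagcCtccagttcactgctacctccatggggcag
Cyp2a5 exon 4: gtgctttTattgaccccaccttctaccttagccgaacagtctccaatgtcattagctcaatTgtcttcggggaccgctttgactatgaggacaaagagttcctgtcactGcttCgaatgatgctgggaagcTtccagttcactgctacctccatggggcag
Cyp2a5 itself was at 4326, 2524 and 4104 in the control livers and at 12719 to 151005 with a median of 13804 in the tumors (3.33 ± 0.73). Its highest value was in tumor 5, in which Cyp2a4 was also highest, at 74558. The groups did not overlap for either gene.

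The other genes of large increase were of diverse function. Akr1c18, a reductase that inactivates progesterone, went from 2.34, 3.45 and 8.02 in the control livers to between 271 and 7362 with a median of 4899 in the tumors (9.96 ± 1.53, adjusted p = 1.2e-05, 10.60 without control liver 3). Slc7a11, the cystine importer, was at 7.02, 1.15 and 13.7 in the control livers and at 193 to 17509 with a median of 512 in the tumors (8.79 ± 1.94), and reached its highest value in tumor 5. Without that tumor its log2 fold change was 5.89, and without control liver 3 it was 9.61. The milk casein gene Csn3 had no count in the control livers and 24.3 to 771 in the tumors, at least 99.6-fold higher. Apela, the gene of an apelin receptor peptide, Cacna1b, a neuronal calcium channel gene, and Sult2a2, a steroid sulfotransferase gene, likewise had no counts in the control livers and rose at least 66-, 61.1- and 34-fold. Apela was at 1054 in tumor 5 and at no more than 165 in the other tumors. Sult2a2 shares 62.1% of its sequence words with other genes and Gm49369, at least 44.5-fold higher, shares 90.9%, so both are uncertain. Tekt5, a sperm flagellum gene, and Slc1a1, a glutamate and cysteine transporter, had means at least 41.4- and 60.8-fold higher in the tumors, most of which came from tumor 5, with 776 and 1200 normalized counts there against at most 24.7 and 21.9 in the other tumors. Without tumor 5, Tekt5 was still called (adjusted p = 0.0069) and Slc1a1 was not (adjusted p = 0.068).

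Among the largest decreases, 6 were genes of major urinary proteins, the pheromone carriers that male mouse liver secretes. Mup7 fell from 903794, 462451 and 651811 in the control livers to between 2124 and 44124 with a median of 11588 in the tumors (-5.13 ± 0.85, adjusted p = 2.8e-05), and its ranges did not overlap. Mup12, Mup2, Mup11, Mup15 and Mup1 had log2 fold changes of -4.83, -4.51, -4.38, -4.22 and -4.17, and that of Mup15 was -3.44 without control liver 1. These genes share between 61.6% (Mup1) and 100% (Mup15) of their sequence words with other genes of the cluster, so the split of reads among them is uncertain. In TPM, the largest losses of the whole transcriptome were Mup7, Mup22, Mup19, Mup14 and Mup20, of which Mup22, with 100% of its words shared, went from 43723 ± 5492 to 7775 ± 2822 (mean ± SD). Moxd1, a monooxygenase-like gene, was at 2241, 140.3 and 1176 in the control livers and at no more than 34.7 in the tumors (-6.49 ± 1.63, -5.68 without control liver 1 and -7.16 without tumor 5). Cyp26b1, which degrades retinoic acid, fell from 407, 1043 and 766 to between 7.41 and 94.7 with a median of 38.7 (-4.13 ± 0.60), and Ttll8, a tubulin glycylase gene, from 101, 122 and 148 to between 0.955 and 7.47 with a median of 5.36 (-4.70 ± 0.47). Gm10309 was at least 52.1-fold lower. Gm10222, which shares 100% of its words with the mitochondrial gene mt-Nd4l, was at 6117, 7187 and 5803 in the control livers and at 0 in 5 of 6 tumors, and Gtpbp4-ps1, a pseudogene sharing 83%, had a log2 fold change of -5.32. Both are uncertain for that reason.

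The genes were grouped into 33 lists by function or cell type, and each list is read against the background of 14.5% of all genes called higher and 5.82% called lower. The lists were chosen with earlier results of these data known, so their shares and medians are partly set by that choice and are descriptions only.

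**Figure D2:**
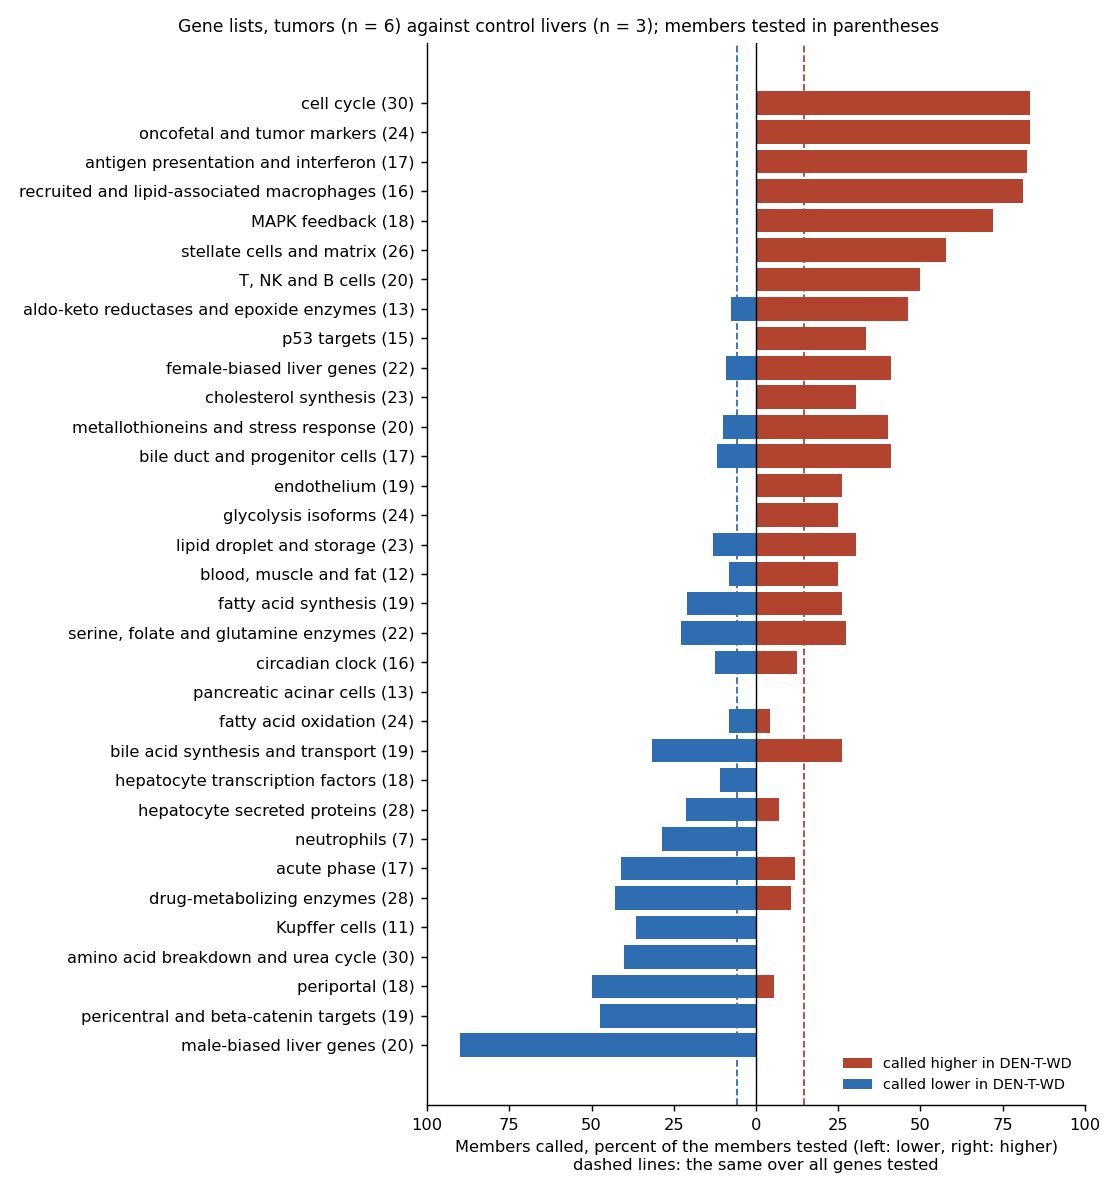
Bars give the percent of each list's tested members called higher (right) or lower (left) in DEN-T-WD (n = 6) than in nonDEN-L-CD (n = 3), with the number tested in parentheses and the same percent over all genes as dashed lines. The cell cycle and oncofetal lists are at 83.3% higher with no member lower, and 18 of the 20 male-biased genes are lower. The lists were chosen with earlier results of these data known.

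Most of the oncofetal and tumor marker genes chosen for the list were higher. Of 24 tested members 20 were called higher and none lower, with a median log2 fold change of 3.64 against 0.02 over all genes. Afp, the fetal counterpart of albumin, was at 10.5, 14.9 and 17.2 in the control livers and at 1096 to 2612 with a median of 1813 in the tumors (7.03 ± 0.95, adjusted p = 2.4e-06). All 6 tumors were far above all 3 control livers. Gpc3, a cell surface proteoglycan of fetal liver, went from 44.5, 37.9 and 34.4 to between 221 and 6949.8 with a median of 6026 (6.99 ± 1.20), and tumor 5, at 221, was the lowest while remaining above the controls. The imprinted non-coding RNA H19 was at 33.9, 1.15 and 8.02 in the control livers and at 552 to 3797 with a median of 2391 in the tumors (7.24 ± 0.92, 8.82 without control liver 1). Its protein-coding neighbor Igf2, the fetal growth factor, was low in both groups, at 16.4, 11.5 and 8.02 and 22 to 132 (2.28 ± 0.50), and shares 61.2% of its words with an overlapping gene model. Golm1, which encodes a Golgi protein shed by liver tumors, rose from 145, 143 and 176 to between 1174 and 1756 with a median of 1504 (3.26 ± 0.41).

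Genes of the dividing cell were higher in the tumors in 25 of 30 members, with none lower and a median of 2.03. The count was the same without tumor 5 and without control liver 1. Mki67, a marker of cells in cycle, was at 102, 51.7 and 53.8 in the control livers and at 293 to 749.9 with a median of 585 in the tumors (3.04 ± 0.46, adjusted p = 9.4e-06). Top2a, the topoisomerase of replicating chromosomes, went from 46.8, 56.3 and 44.7 to between 196 and 436 with a median of 364 (2.76 ± 0.43). Cdk1, the kinase that starts mitosis, rose from 36.3, 35.6 and 22.9 to between 90.7 and 174 with a median of 111 (1.96 ± 0.36), and Ccnb1, its cyclin partner, from 22.2, 8.05 and 6.87 to between 61.2 and 155 with a median of 99.2 (3.11 ± 0.50, 3.80 without control liver 1), of whose words 23.4% occur in another gene. The groups did not overlap for these 4 genes. Ccnd1, the G1 cyclin, had 752, 1551 and 1209.7 against 1628 to 5011 with a median of 3701 (1.52 ± 0.35), and tumor 5 was only just above the highest control.

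Many promoters of mitotic genes carry 2 short elements, the CHR (searched as TTTGAA) and the NF-Y site (searched as CCAAT), both looked for on either strand in the RefSeq windows of 250 bases before to 50 after each start site (GRCm38.p6). A window was found for 23 of the 30 cell cycle genes. CCAAT occurred in 19 of them (82.6%) and in 37.9% of all 27025 genes with a window, TTTGAA in 11 (47.8%) and in 18.1%, and both together in 11 (47.8%) and in 7.12%. An E2F site (searched as GCGCGAA or GCGGGAA) occurred in 5 (21.7%) and in 6.06%. The 100 bases before the start site are shown for 4 of these genes, which differ in how many of the elements they hold; capitals mark CCAAT and TTTGAA or their complements, and a match is a description of the letters only.
Cdc20 (chr4:118437344-118437443, minus strand): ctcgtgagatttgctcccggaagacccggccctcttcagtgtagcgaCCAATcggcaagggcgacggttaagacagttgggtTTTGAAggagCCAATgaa
Cdk1 (chr10:69352913-69353012, minus strand): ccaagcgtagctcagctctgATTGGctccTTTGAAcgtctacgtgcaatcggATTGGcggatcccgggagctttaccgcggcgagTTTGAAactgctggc
Plk1 (chr7:122159335-122159434, plus strand): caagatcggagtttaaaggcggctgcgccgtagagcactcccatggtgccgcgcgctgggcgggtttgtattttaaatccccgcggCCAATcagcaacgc
Ccnb1 (chr13:100786487-100786586, minus strand): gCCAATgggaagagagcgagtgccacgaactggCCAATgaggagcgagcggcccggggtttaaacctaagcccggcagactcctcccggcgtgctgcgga
Cdc20 and Cdk1 held both elements in this stretch, and Plk1 and Ccnb1 held CCAAT alone.

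Genes of the p53 response to DNA damage all had log2 fold changes above 0, from 0.07 to 4.38, most of them below the size required for a call. With no minimum fold change 11 members passed as higher and none as lower, where 4342 of 15625 genes passed as higher. 5 of 15 members were called higher and none lower, with a median of 0.65: Phlda3, Eda2r, Plk2, Btg2 and Cdkn2a, of which the last 3 are named here after their values were seen. Btg2 was not called without control liver 1 (1.10), nor Plk2 without control liver 3 (0.85). Phlda3, an inhibitor of Akt signaling, went from 19.9, 29.9 and 21.8 to between 73 and 287 with a median of 197 (2.98 ± 0.41), and Eda2r, a death receptor of the TNF family, from 57.3, 128 and 79 to between 179 and 621 with a median of 350.4 (2.03 ± 0.42). Cdkn2a, the locus of the p16 and Arf tumor suppressors, which acts upstream of p53 and is not one of its induced targets, was at 8.19, 1.15 and 4.58 in the control livers and at 31.7 to 183 with a median of 83.8 in the tumors (4.38 ± 0.77, 5.01 without control liver 1). The classical targets were not called: Mdm2, the p53 ubiquitin ligase, had 0.50 ± 0.11, and Cdkn1a, the p21 cell cycle inhibitor, had 0.50 ± 0.45. The control values of Cdkn1a were themselves spread widely, at 91.2, 997 and 535, and without control liver 1 its log2 fold change was -0.033.

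Genes that MAP kinase signaling induces, among them its own inhibitors, were higher in 13 of 18 members, with none lower and a median of 1.51. Dusp6, the phosphatase that inactivates ERK, was at 1241, 953 and 797 in the control livers and at 1328 to 3322 with a median of 3072 in the tumors (1.48 ± 0.32, adjusted p = 0.00047). Dusp5, the nuclear ERK phosphatase, rose from 29.2, 43.7 and 49.3 to between 81.8 and 592 with a median of 450 (3.32 ± 0.61), and the immediate early factor Egr1 from 212, 240.3 and 223 to between 383 and 2726 with a median of 2211 (3.13 ± 0.54). The ETS factors Etv4 and Etv5 had log2 fold changes of 3.34 ± 0.86 and 1.19 ± 0.19, and Spry4, an inhibitor of Ras activation, had 1.13 ± 0.33. In each of these 6 genes tumor 5 was the lowest tumor, at 1328, 81.8, 383, 4.42, 156 and 125 in the order named, and for Etv4 and Spry4 it lay within the control range. Without tumor 5, 12 members were called. Myc, the growth-promoting transcription factor, was at 77.2, 56.3 and 125 in the control livers and at 129.6 to 354 with a median of 252 in the tumors (1.54 ± 0.55), and here tumor 5, at 319, was among the higher tumors. An AP-1 site (searched as TGANTCA) was in 0 of the 9 members with a promoter window and in 7.93% of all windows. The call of Myc was lost without control liver 1 (1.43) and without control liver 2 (1.31), and that of Spry4 without control liver 2 (0.85).

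**Figure D3:**
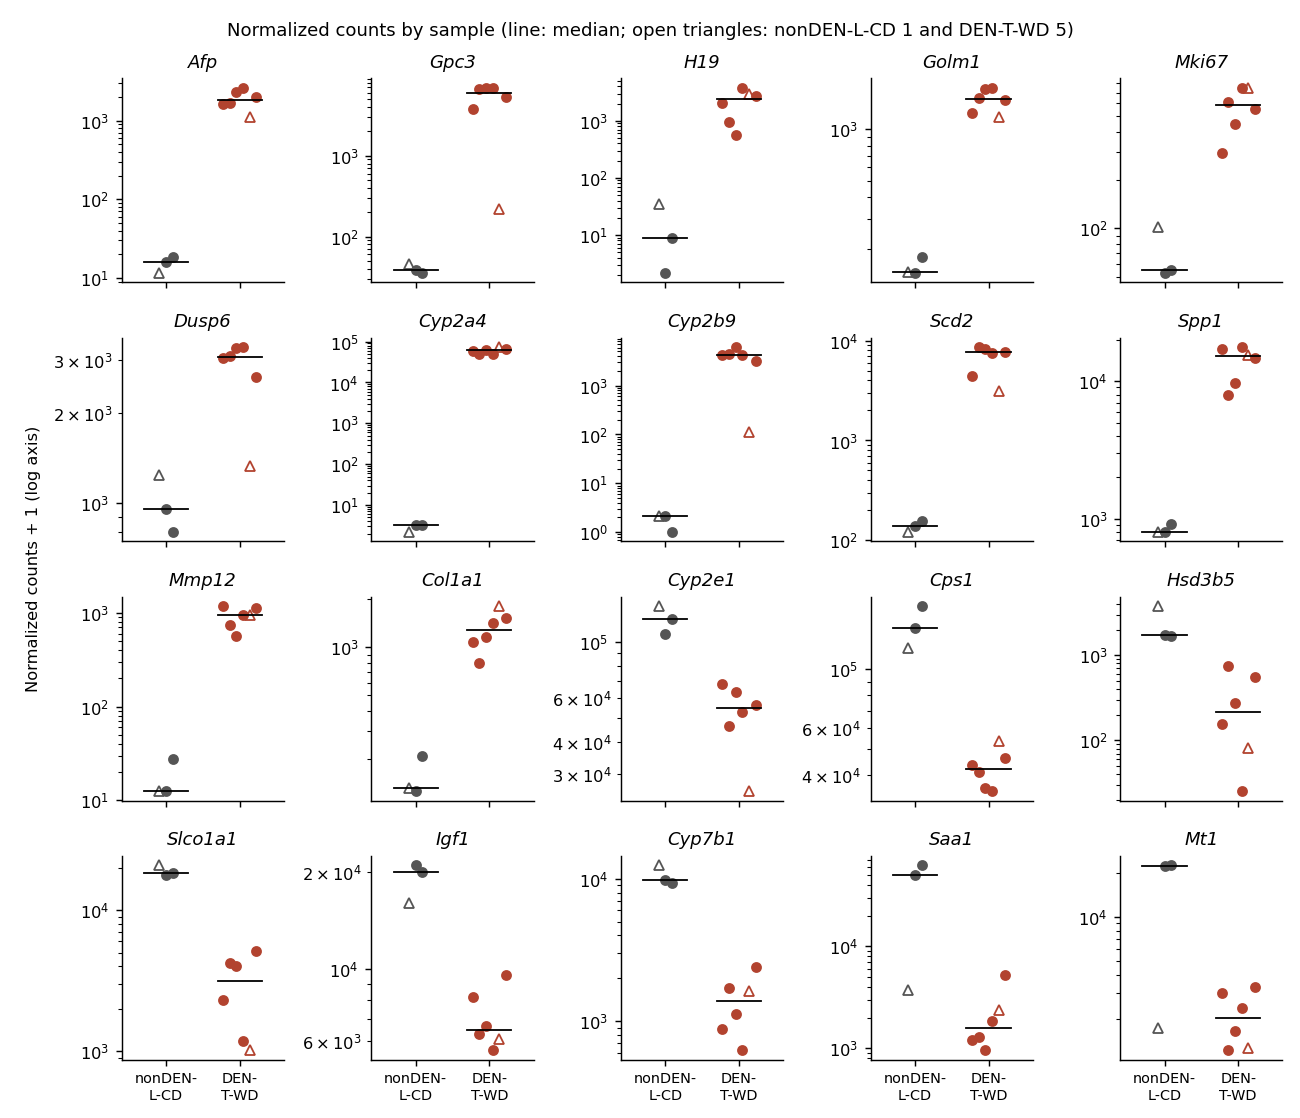
Normalized counts plus 1 (log axis) of 20 genes in each nonDEN-L-CD liver (gray, n = 3) and DEN-T-WD tumor (red, n = 6), with the group median as a line and control liver 1 and tumor 5 as open triangles. The groups are apart in all panels except Saa1 and Mt1, where control liver 1 lies among the tumors, and tumor 5 is the lowest tumor for Gpc3, Dusp6, Cyp2b9, Scd2 and Cyp2e1, among others.

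Male-biased liver genes fell in 18 of 20 members, with none higher and a median of -2.52, where 5.82% of all genes were lower. Slco1a1, an organic anion uptake carrier, fell from 20886, 17703 and 18259 to between 1009.5 and 5151 with a median of 3167 (-2.66 ± 0.46, adjusted p = 4.3e-05). Hsd3b5, the male liver's steroid 3-keto reductase, fell from 3782, 1733 and 1661 to between 24.3 and 745 with a median of 214 (-2.96 ± 0.80), and Cyp7b1, the oxysterol 7α-hydroxylase, from 12465, 9760.5 and 9303 to between 619.7 and 2408 with a median of 1375 (-2.91 ± 0.43). All tumors were below all control livers for these 3 genes. Cyp2d9, a testosterone 16α-hydroxylase, went from 24710, 16969 and 18948 to between 4625 and 9286 with a median of 6112 (-1.66 ± 0.18), and Mup20, the pheromone darcin, from 492814, 476804 and 396709 to between 113208 and 191706 with a median of 138914 (-1.64 ± 0.26). For Cyp4a12a, a male fatty acid hydroxylase that shares 48.9% of its words with its gene copy (-1.31 ± 0.39), tumor 5 had 8767, within the control range of 6077 to 10661, while the other tumors had at most 3054.

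Female-biased genes were higher in 9 of 22 tested members and lower in 2, with a median of 2.76. The largest were Cyp2a4, Cyp2b9 and Cyp2b13, described above. A1bg, a plasma glycoprotein gene of female livers, was at 0 to 18.5 in the tumors and not called (1.13 ± 1.17). Cyp2b10 and Adh6-ps1 were the 2 members that fell, at -2.66 and -1.93, both named after their values were seen.

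The zonated functions of the lobule were lower from both ends. Of 19 pericentral and β-catenin target genes 9 were called lower and none higher, with a median of -0.85. Cyp2e1, the ethanol-oxidizing cytochrome, fell from 138606, 107626 and 123227 to between 25605 and 67958 with a median of 54511 (-1.24 ± 0.20), Cyp1a2, which oxidizes caffeine, from 7944, 6024 and 7888 to between 1672 and 3349.9 with a median of 2018 (-1.72 ± 0.21), and Oat, ornithine aminotransferase, from 19159, 16985 and 21172 to between 3629 and 5879 with a median of 5076 (-1.93 ± 0.19, adjusted p = 2.8e-08). Slc1a2, a glutamate transporter of the cells around the central vein, had -1.81 ± 0.16. Glul, the glutamine synthetase that serves as the marker of β-catenin activation in liver tumors, was at 23630, 21695 and 22730 in the control livers and 7318 to 14820 with a median of 13725 in the tumors. Every tumor was below every control liver, and the log2 fold change of -0.85 ± 0.18 did not reach the size required for a call.

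Periportal genes were lower in 9 of 18 members and higher in 1, with a median of -0.96. Cps1, which takes ammonia into the urea cycle, fell from 120116, 143730 and 173418 to between 34746 and 53720 with a median of 42217 (-1.78 ± 0.24, adjusted p = 1.9e-06), and Sds, serine dehydratase, from 2837, 3922 and 6106 to between 736 and 2681 with a median of 1076 (-1.69 ± 0.36). Cyp2f2, the naphthalene-oxidizing cytochrome of periportal cells, was at 26828, 20080 and 21299 in the control livers and at no more than 5929 in 5 tumors, and at 22443, within the control range, in tumor 5 (-1.52 ± 0.35, -2.18 without it). The member that rose was Hsd17b6, a retinol and steroid dehydrogenase, from 1261, 921 and 692 to between 3161 and 8261 with a median of 4414 (2.42 ± 0.32). Hal, the histidine ammonia-lyase, was not called (-0.39 ± 0.18). Enzymes of amino acid breakdown and the urea cycle, a list that shares Cps1 and 2 other called members with the periportal genes, were lower in 12 of 30 and higher in none, with a median of -0.83. Tat, tyrosine aminotransferase, fell from 47554, 47127 and 70278 to between 7827 and 17084 with a median of 13723 (-2.11 ± 0.32), while Tdo2, tryptophan dioxygenase, had -0.45 ± 0.14 and was not called.

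Drug-metabolizing enzymes were lower in 12 of 28 members and higher in 3, with a median of -0.63. Cyp2c29, which metabolizes arachidonic acid and many drugs, fell from 27086, 28363 and 29211 to between 3191 and 7962 with a median of 6098 (-2.23 ± 0.28, adjusted p = 9.1e-07), and Cyp3a11, the main steroid and drug hydroxylase, from 87927, 80291 and 64715 to between 20742 and 37467 with a median of 30192 (-1.42 ± 0.24). Nr1i3, the receptor CAR that induces several of these enzymes, was at 3518, 1218 and 1463 in the control livers and at 619 to 1582 with a median of 1169 in the tumors and not called (-0.79 ± 0.27). The 3 higher members were Cyp2a5, Cyp1a1 and Gstm1. Cyp1a1, the target of the aryl hydrocarbon receptor, was at 1272 in tumor 5 and at 11.1 to 26.2 in the other tumors, against 12.9, 11.5 and 12.6 in the control livers, and without tumor 5 its log2 fold change was 0.51 in place of 4.20. Gstm1, a glutathione transferase, was at 173699 in tumor 5 and at 22794 to 45910 elsewhere, with 1.42 in all tumors and 0.60 without tumor 5. Only Cyp2a5 was called without it, at 1.94.

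In bile acid metabolism, 5 of 19 tested members were higher and 6 lower, with a median of -0.43. Cyp7a1, the rate-limiting enzyme of bile acid synthesis, rose from 953, 314 and 505 to between 2085 and 3811 with a median of 3559.7 (2.40 ± 0.41, adjusted p = 4e-05), and Cyp8b1, which directs synthesis to cholic acid, fell from 5076, 2617 and 2249.8 to between 977 and 1445 with a median of 1122 (-1.50 ± 0.25). Among the transporters, Slc10a1, which takes up bile acids, had -1.52 ± 0.18, Slco1b2, an organic anion carrier, -1.08 ± 0.15, and Abcb11, the bile salt export pump, -1.60 ± 0.13. Slco1b2 lost its call without control liver 1 (-0.93). Abcc4, an exporter that moves bile acids back to blood, rose from 99.4, 123 and 81.3 to between 330.4 and 8511 with a median of 458 (4.15 ± 1.04), and was highest in tumor 5, at 8511. Without that tumor its log2 fold change was 2.14.

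Lipid genes moved in both directions. In fatty acid synthesis 5 of 19 members were higher (Scd2, Srebf1, Pnpla5, Gpam and Elovl7) and 4 lower (Acacb, Me1, Elovl6 and Mlxipl), with a median of 0.14, Gpam, Elovl7, Acacb and Mlxipl being named after their values were seen. Elovl7 had a log2 fold change of 5.43, 4.05 without tumor 5 and 6.03 without control liver 3. Scd2, the stearoyl-CoA desaturase of fetal liver and other tissues, rose from 119, 137 and 156 to between 3123 and 8688 with a median of 7626 (5.59 ± 0.66, adjusted p = 3.9e-07). Its adult liver counterpart Scd1 was at 362609, 391846 and 405832 in the control livers and at 105522 to 379587 with a median of 225524 in the tumors and not called (-0.69 ± 0.44). Srebf1, the transcription factor of lipogenesis, rose from 1344, 990.1 and 1038 to between 1569 and 7572 with a median of 4718 (2.10 ± 0.39), Pnpla5, a lipase, was at least 78.7-fold higher, and Fasn, fatty acid synthase, had 1.09 ± 0.50 (adjusted p = 0.068) with all tumors above all control livers. Acly, ATP citrate lyase, was not called (0.49 ± 0.40). Me1, the malic enzyme that supplies NADPH, fell from 7833, 7963 and 6335 to between 2325 and 4673 with a median of 2889 (-1.25 ± 0.37), and the elongase Elovl6 had -1.07 ± 0.30.

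Cholesterol synthesis genes were higher in 7 of 23 members (4 without control liver 3) and lower in none, with a median of 0.58. Hmgcs1, a synthase of the early pathway, rose from 1959, 3516 and 1613 to between 4009.8 and 9596 with a median of 7257 (1.57 ± 0.34, adjusted p = 0.00054). Sqle, squalene epoxidase, was not called (0.83 ± 0.55). Of the 15 members with a promoter window, 13 held CCAAT (86.7%, against 37.9% of all) and 2 the sterol element searched as TCACCCC (13.3%, against 4.73% of all).

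Lipid droplet and storage genes were higher in 7 of 23 members and lower in 3, with a median of 0.10. Cd36, the fatty acid translocase, rose from 1632, 1690.4 and 1469.7 to between 3805 and 14207 with a median of 5056 (2.02 ± 0.36, adjusted p = 7.4e-05), and was highest in tumor 5. Pnpla3, a lipid droplet hydrolase, was at 21.1, 19.5 and 11.5 in the control livers and between 167 and 433 in 5 tumors, and at 11.1 in tumor 5 (3.89 ± 0.94). Cidea, which fuses lipid droplets, was similarly at 2.21 in tumor 5 and at 89.9 to 375 in the others against 4.68, 52.9 and 5.73 (2.98 ± 1.04), and its call was lost without control liver 1 (2.48) or 3 (2.53), while without control liver 2 it had 4.97. Plin2, the coat protein of hepatocyte lipid droplets, was not called (-0.60 ± 0.31). Of 24 genes of fatty acid oxidation, 1 was higher and 2 lower (1 without control liver 1 and 4 without control liver 3), with a median of -0.39. The inner membrane carnitine transferase Cpt2 fell from 3877, 3730.3 and 3450.4 to between 1329 and 2284 with a median of 1688 (-1.10 ± 0.13), Acot1, a thioesterase, had -1.82 ± 0.48, and Fgf21, the fasting hormone, rose from 124, 131 and 47 to between 118 and 582 with a median of 251 (1.46 ± 0.48). The call of Acot1 was lost without control liver 1 (-0.96) and that of Fgf21 without control liver 3 (1.11, adjusted p = 0.089). The regulator Ppara was not called (-0.49 ± 0.19).

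Among glycolysis and pentose phosphate genes 6 of 24 were higher and none lower (1 lower without tumor 3 or control liver 1), with a median of 0.44. Hk2, a hexokinase, rose from 56.1, 27.6 and 37.8 to between 88.9 and 218 with a median of 121 (1.74 ± 0.34), Pkm, the muscle pyruvate kinase, from 482, 427 and 522 to between 907 and 2475 with a median of 1011 (1.43 ± 0.27), and Pfkp, the platelet phosphofructokinase, from 67.8, 89.7 and 115 to between 125 and 394 with a median of 199.6 (1.29 ± 0.29). G6pdx and Pgd, which make NADPH in the pentose phosphate pathway, had 1.56 ± 0.22 and 1.75 ± 0.41, and Pgd reached 6771 in tumor 5 against at most 2246 in the others.

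Serine, folate and glutamine enzymes were divided, with 6 of 22 higher, 5 lower (3 without control liver 3) and a median of 0.01. Of the enzymes that make serine, Phgdh, with 47.8% of its words shared with other gene models, rose from 24.6, 12.6 and 24.1 to between 21.4 and 324 with a median of 246 (3.37 ± 0.72) and Psat1 from 26.9, 71.3 and 50.4 to between 166 and 990.2 with a median of 886 (3.98 ± 0.77, adjusted p = 0.00016). Tumor 5 was the lowest tumor for both, and for Phgdh it lay within the control range. Gnmt, which consumes S-adenosylmethionine, fell from 19406, 15693 and 20180 to between 3574 and 12612 with a median of 4498 (-1.66 ± 0.33), while Mat1a, which makes it, had -1.14 ± 0.20 and Bhmt, which remethylates homocysteine, -1.26 ± 0.27. Without control liver 3 the log2 fold changes of Mat1a and Bhmt were -0.90 and -0.95 and neither was called.

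Secreted products of hepatocytes were uneven. Among 28 members 2 were higher (4 without tumor 5, and 1 without control liver 1 or 2) and 6 lower, with a median of -0.36. Alb, serum albumin, was at 2089117, 1895070 and 2129713 in the control livers and at 2542449 to 3355747 in 5 tumors, and at 637050 in tumor 5, and was not called (0.33 ± 0.33). Ttr, transthyretin, was lower in every tumor than in every control liver, at 97409, 94649 and 95016 in the control livers and at 30604 to 72012 with a median of 52397 in the tumors, and short of a call (-0.85 ± 0.22). Trf, transferrin, which shares 59.4% of its words with other gene models, rose from 283318, 289342 and 294545 to between 227395 and 882026 with a median of 776950 (1.28 ± 0.30), although tumor 5, at 227395, lay below the control livers. In TPM Alb, Trf, Ahsg and Apoa1 had 4 of the 5 largest gains of the transcriptome, and Gm42418, a non-coding gene over ribosomal RNA sequence, had the other (0.69 ± 0.60, not called). Ahsg, fetuin A, and Apoa1, the main protein of HDL, were short of a call with 0.85 ± 0.34 and 0.86 ± 0.33, and without tumor 5 both were called, at 1.05 and 1.07. Igf1, the circulating growth factor, fell from 15957, 20988 and 20035 to between 5587 and 9583 with a median of 6482 (-1.43 ± 0.17, adjusted p = 5.9e-07), while Igfals, its carrier, had -0.96 ± 0.21. C8b of the complement membrane attack complex and the fibrinogen chain Fgg also fell, with -2.20 ± 0.44 and -1.45 ± 0.28.

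Of 18 hepatocyte transcription factors none was higher and 2 were lower, with a median of -0.55. Hnf4a was at 19397, 17913 and 18602 in the control livers and at 8277 to 13544 with a median of 12709 in the tumors (-0.63 ± 0.13), and Cebpa had -0.60 ± 0.12. For Hnf4a every tumor was below every control liver, by less than the size required for a call. The factors that fell were Cebpb, the acute phase regulator, from 1502, 1593 and 1723 to between 446 and 638 with a median of 515 (-1.61 ± 0.15), and Onecut2, of biliary and hepatocyte development, from 4443, 4450.2 and 5205 to between 1148 and 2328 with a median of 1223 (-1.64 ± 0.17).

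Acute phase genes were lower in 7 of 17 members and higher in 2, the copper carrier Cp (1.09 ± 0.24) and the interleukin 1 antagonist Il1rn (2.90 ± 0.48), which are named after their values were seen. The serum amyloid genes Saa1 and Saa2 were at 3729, 50136 and 62567 and 984, 37056 and 48478 in the control livers and at 951 to 5210.3 with a median of 1577 and 396 to 1981 with a median of 807 in the tumors (-4.18 ± 0.82 and -4.89 ± 0.84). Control liver 1 lay within the tumor range for both, and without it their log2 fold changes were -4.75 and -5.49. Without control liver 3 that of Saa2 was -4.29. Hamp, the iron hormone hepcidin, fell from 10990, 21479 and 20007 to between 2229.8 and 6234 with a median of 4089.6 without overlap (-2.13 ± 0.34). Lcn2, a siderophore binder that neutrophils and injured hepatocytes secrete, was at 192, 4066 and 6028 in the control livers and at 6356 to 14319 with a median of 8044 in the tumors and not called (1.48 ± 0.85), although all tumors were above all control livers. The metallothioneins Mt1 and Mt2, which bind zinc and copper, were likewise low in control liver 1: Mt1 was at 1723, 22319 and 22534 in the control livers and at 1217 to 3280.5 with a median of 2021 in the tumors (-2.86 ± 0.80) and Mt2 at 1004, 19673 and 19946 in the control livers and at 665 to 2856 with a median of 1089 in the tumors (-3.27 ± 0.90). For Saa1, Saa2, Mt1 and Mt2 the falls thus came from control livers 2 and 3, since control liver 1 lay within the tumor range. The part of single control livers in these results was not tested beyond leaving each out.

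Of 20 metallothionein and stress response genes 8 were higher and 2, Mt1 and Mt2, lower. Nqo1, Gsta1 and Gpx2, which are NRF2 targets, were highest in tumor 5. Of the other NRF2 targets in the list only Hmox1 is described. Nqo1, a quinone reductase, rose from 71.4, 102 and 74.5 to 438 to 782 in 5 tumors and 3312 in tumor 5 (3.58 ± 0.59, 2.66 without it). Gsta1, a glutathione transferase, of whose words 90.5% occur in other genes, so that it is uncertain, was at 153, 582 and 253 in the control livers, 838 to 2023 in 5 tumors and 37230 in tumor 5 (4.46 ± 1.25, 1.94 without it and 5.16 without control liver 2). Gpx2, the gastrointestinal glutathione peroxidase, was at 2023 in tumor 5 and at 3.73 to 62.3 in the other tumors, against 3.51, 0 and 9.16 in the control livers, and its call was lost without tumor 5 (2.50, adjusted p = 0.053), against 6.37 in all samples and 7.59 without control liver 3. Hmox1, heme oxygenase, was not called (0.12 ± 0.23). Trib3, a target of the integrated stress response, rose from 87.7, 77 and 36.7 to between 347 and 1257 with a median of 929 (3.77 ± 0.47, adjusted p = 7.6e-07), with its lowest value in tumor 5. Among aldo-keto reductases and epoxide enzymes 6 of 13 were higher and 1 lower. Tspan8, a tetraspanin listed with them, rose from 50.3, 59.8 and 107 to between 473 and 5251 with a median of 3888 (5.58 ± 0.92), and Akr1c6, a 17β-hydroxysteroid dehydrogenase of liver, fell from 26390, 23396 and 26090 to between 7259 and 12070 with a median of 11570 (-1.21 ± 0.14). Of 16 circadian clock genes 2 were higher, Npas2 (1.37 ± 0.57) and Per3 (1.47 ± 0.26), and 2 lower, Arntl (-1.21 ± 0.35) and Clock (-1.18 ± 0.11). The call of Npas2 was lost without tumor 2, 4, 5 or 6 and without any one of the control livers, and that of Arntl without control liver 2. These 4 are named after their values were seen, and the labels give no time of day for the tissue.

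Macrophage genes separated by subset. Of 16 genes of recruited and lipid-associated macrophages 13 were higher and none lower, with a median of 2.47, and their summed level was 281 to 306 TPM in the control livers and 1096 to 1898 TPM in the tumors. Mmp12, the macrophage elastase, rose from 11.7, 11.5 and 26.3 to between 569 and 1187 with a median of 946 (5.79 ± 0.65, adjusted p = 2.3e-07), Gpnmb from 11.7, 18.4 and 14.9 to between 299 and 934 with a median of 504 (5.32 ± 0.88) and Trem2, a lipid receptor, from 10.5, 4.6 and 12.6 to between 56.5 and 147 with a median of 88.4 (3.30 ± 0.47). Spp1, osteopontin, which bile duct cells and tumor cells also express, rose from 797, 801 and 921 to between 7999 and 17782 with a median of 15178 (4.04 ± 0.44). The summed level includes Spp1, whose share was not separated, so the sum cannot be read as a level of macrophages alone. No control liver overlapped the tumors for these 4 genes. Of 11 genes of Kupffer cells, the resident macrophages, 4 were lower and none higher (1 higher without control liver 1), with a median of -0.23, and their summed levels overlapped (204 to 293 against 223 to 458 TPM). Timd4 fell from 239.8, 155 and 133 to between 25.8 and 85.4 with a median of 57.4 (-1.66 ± 0.34), and the scavenger receptors Marco and Cd163 had -2.95 ± 0.62 and -2.55 ± 0.54. The other was Fcna, a ficolin, named after its values were seen (-1.51 ± 0.15). Clec4f, the defining lectin of Kupffer cells, was at 2459, 1554 and 1854 in the control livers and at 892 to 1538 with a median of 1249.9 in the tumors and not called (-0.67 ± 0.19).

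Lymphocyte genes were higher in 10 of 20 members and lower in none, at low counts, and 5 were called without control liver 2. The T cell receptor subunit Cd3e was at 12.9, 12.6 and 12.6 in the control livers and at 9.24 to 30.6 with a median of 18.9 in the tumors and not called (0.58 ± 0.48), while Cd8a, of cytotoxic T cells, rose from 2.34, 6.9 and 3.44 to between 15.9 and 64 with a median of 25.2 (2.75 ± 0.68), the chemokine Ccl5 from 11.7, 9.2 and 10.3 to between 37.3 and 129.9 with a median of 61 (2.66 ± 0.56) and Cd79a, of B cells, from 9.36, 1.15 and 12.6 to between 24.3 and 49.7 with a median of 34.7 (2.19 ± 0.48). Themis, a gene of T cell receptor signaling, rose from 9.36, 12.6 and 11.5 to between 163 and 595 with a median of 286 (4.82 ± 0.66). Its level in the tumors was far above that of Cd3e, and which cells expressed it was not tested. The summed level of the list overlapped between groups, at 18.5 to 89 and 33 to 111 TPM. Of 7 neutrophil genes tested 2 were lower, Retnlg (-1.36 ± 0.53) and Mmp8 (-2.02 ± 0.65), named after their values were seen, and the count was 4 without control liver 1, 0 without control liver 3 and 1 without control liver 2 or tumor 2, 3 or 4. S100a8 was at 30.4, 90.8 and 123 in the control livers and at 16.8 to 93.6 with a median of 45 in the tumors and not called (-0.76 ± 0.49).

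Antigen presentation and interferon genes were higher in 14 of 17 members and lower in none, with a median of 1.55. H2-Aa, an MHC class II chain, rose from 633, 708 and 971 to between 1777 and 4736 with a median of 2446 (1.79 ± 0.30, adjusted p = 3.7e-05), its invariant chain Cd74 from 1418, 1362 and 1951 to between 2881 and 8212 with a median of 4306 (1.55 ± 0.28), and their transactivator Ciita from 23.4, 16.1 and 22.9 to between 72.8 and 201 with a median of 109.7 (2.49 ± 0.32). Tumor 5 was the highest tumor for all 3. The interferon-induced Isg15 and the chemokine Cxcl10 had 1.76 ± 0.29 and 1.81 ± 0.40, with no overlap between groups.

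Stellate cell and matrix genes were higher in 15 of 26 members and lower in none, with a median of 1.26 and summed levels of 586 to 763 TPM in the control livers and 1005 to 1444 TPM in the tumors. Col1a1, the main chain of fibrillar collagen, rose from 132, 125 and 207 to between 796 and 1806 with a median of 1286 (3.06 ± 0.35, adjusted p = 2.8e-07), Col4a1 of basement membrane from 1026, 1795 and 1938 to between 2979.6 and 4981 with a median of 3631 (1.27 ± 0.20) and the collagenase Mmp13 from 8.19, 10.3 and 19.5 to between 135 and 413 with a median of 202 (4.16 ± 0.58). Timp1, a protease inhibitor, had 2.43 ± 0.44. Acta2, the actin of activated stellate cells, was at 213, 128 and 209.6 in the control livers and at 281 to 484 with a median of 391 in the tumors (1.08 ± 0.20) and was not called without control liver 2 (0.88). Lrat, which stores retinol in quiescent stellate cells, was at 712, 966 and 975 in the control livers and at 265 to 694 with a median of 547 in the tumors and not called (-0.76 ± 0.28).

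Endothelial genes were higher in 5 of 19 members, Cd34, Emcn, Esm1, Apln and Angpt2, and lower in none, Emcn being named after its values were seen. Esm1, a gene of endothelial tip cells, rose from 53.8, 37.9 and 40.1 to between 524 and 1028 with a median of 714 (4.04 ± 0.35, adjusted p = 7.5e-09), and Apln, the apelin of sprouting vessels, was at 2.34, 0 and 1.15 in the control livers and at 57.3 to 409 with a median of 86.1 in the tumors, highest in tumor 4, at least 41-fold higher. Angpt2, an angiopoietin that loosens vessels, and Cd34, absent from healthy sinusoids, had 2.20 ± 0.30 and 2.39 ± 0.26. The sinusoidal markers Stab2 and Clec4g had 0.31 ± 0.13 and -0.64 ± 0.15 and Plvap, of fenestrated endothelium, 0.45 ± 0.13, all short of a call.

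Bile duct and progenitor genes were higher in 7 of 17 tested members and lower in 2, Onecut2 and Lamb3, the latter named after its values were seen and not called without tumor 2, tumor 6 or control liver 1. Krt23 rose from 57.3, 9.2 and 12.6 to between 226 and 911 with a median of 457 (4.27 ± 0.65, adjusted p = 1.2e-05, 5.50 without control liver 1). The defining keratins of bile ducts were not called, with Krt19 at 90.1, 41.4 and 95.1 in the control livers and at 13.9 to 63.5 with a median of 33.1 in the tumors (-1.04 ± 0.58) and Krt7 at -0.39 ± 0.50, and neither were Sox9 (0.75 ± 0.30) and Epcam (0.32 ± 0.47). Of 12 genes of blood, muscle and fat 3 were higher and 1 lower (2 without tumor 3). The higher ones were Cfd, an adipocyte protease (2.91 ± 0.81), and 2 hemoglobin genes, and the lower one was Alas2, the heme synthesis enzyme of red cells, named after its values were seen (-1.19 ± 0.13). Hemoglobin transcripts Hbb-bs and Hba-a1, which share 53.2% and 72.3% of their words with their gene copies, rose, with 1.68 ± 0.35 and 1.78 ± 0.35, and were highest in tumor 3, at 33107 and 11259. Of 13 pancreatic acinar genes none was called (2 were lower without tumor 6): their summed level was 1449, 10.4 and 574 TPM in control livers 1, 2 and 3, and 294 and 1936 TPM in tumors 2 and 6 against at most 38.2 in the other tumors. Cela2a, a pancreatic elastase, was at 3510.4, 2.3 and 1467 and, in tumors 2 and 6, at 250.2 and 2187. The part of these transcripts in other results was not tested.

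Tumor 5 departed from the other tumors in 2 sets of strongly expressed genes. It was at least 8-fold above the highest other tumor in 21 genes with at least 1000 normalized counts, and at least 8-fold below the lowest other tumor in 27 genes with at least 100. Among those above were Slc7a11, at 17509 against at most 611 in the others, Cyp1a1, Abcc4 and Cyp2a5. Among those below were Cyp2b9, Pnpla3, Gpc3 and Akr1c18, the last at 271 against at least 4081 in the others. For Spp1 tumor 5 lay among the others, and for Mki67 and Col1a1 it was the highest tumor, at 749.9 against at most 745 and 1806 against at most 1525. Dmbt1, a mucin-like gene of ducts, was uneven across all samples, with 3324, 209 and 1272 in the control livers, 1088 and 2312 in tumors 1 and 6 and at most 223 in the other tumors.

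**Figure D4:**
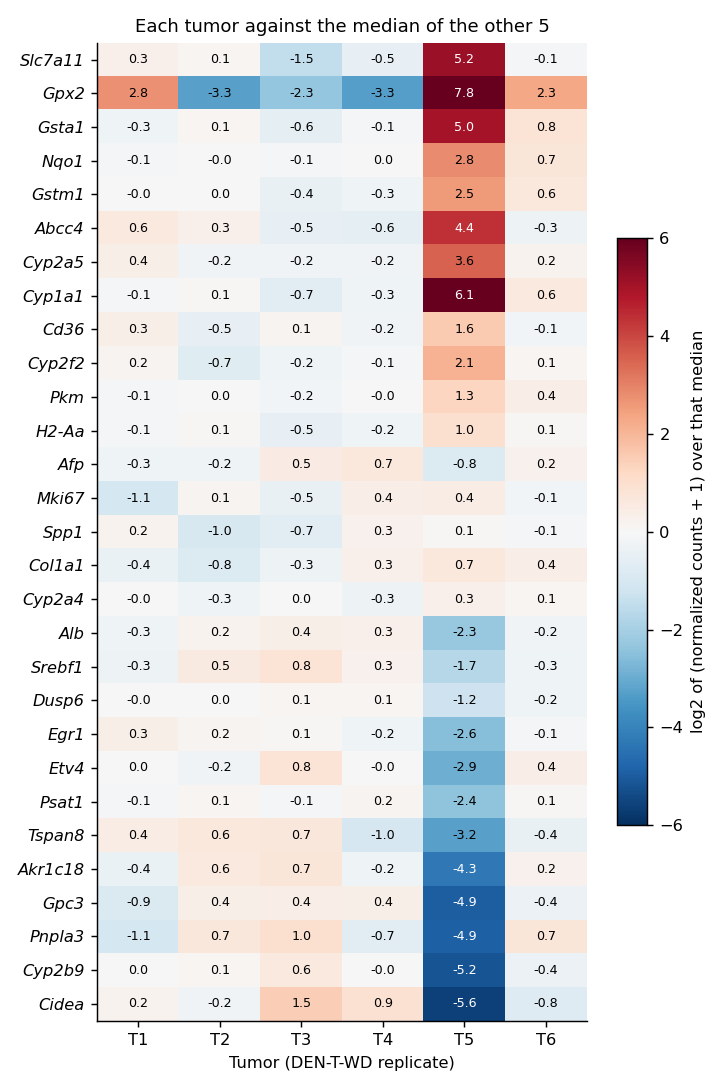
Each cell is the log2 of one tumor's normalized counts plus 1 over the median of the other 5, for 29 genes (rows) in the 6 DEN-T-WD tumors (columns). Tumor 5 holds nearly all the extreme cells, from 7.8 for Gpx2 to -5.6 for Cidea, while Cyp2a4 stays within 0.3 of the others in every tumor.

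The other 3 groups of the study show at which step each difference was present, with the caution that the comparisons share samples and that tumors from mice on the control diet were not analysed here. The labels do not say which tumor and peritumoral samples came from the same mouse, so these were compared without pairing. Against the same control livers 5.28% of genes were called in nonDEN-L-WD and 4.7% in DEN-L-CD, and 2.76% were called in DEN-PT-WD against nonDEN-L-WD and 7.9% in DEN-T-WD against DEN-PT-WD. Afp had log2 fold changes of 0.34 for western diet alone, 3.69 for DEN alone, 5.05 for peritumoral against untreated western-diet liver and 1.65 for tumor against peritumoral liver. For Cyp2a4 the same values were 5.82, 10.77, 6.74 and 2.29, of which the first 2 start from control livers at the floor and depend on the prior count. For Gpc3 they were 0.54, 2.83, 4.23 and 2.22, and for Golm1 -0.42, 0.44, 1.80 and 1.88. Afp, Gpc3 and Golm1 were thus within 0.54 of the control level on the log2 scale in western-diet livers without DEN, and in peritumoral livers they lay between those and the tumors.

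Other genes that differed between tumors and control livers already differed in western-diet livers without DEN. Themis had 5.75 in nonDEN-L-WD (adjusted p = 6.6e-06) and -1.12 from peritumoral liver to tumor, Cyp7a1 had 3.87 (adjusted p = 6.6e-06) and -1.68, Cd36 1.92 (adjusted p = 0.00098) and -0.20, and Srebf1 2.43 (adjusted p = 0.00028) and -0.55. Gpnmb and Mmp12 had 3.14 (adjusted p = 0.013) and 3.50 (adjusted p = 0.00063) in nonDEN-L-WD, and 0.13 and 0.26 from peritumoral liver to tumor. The rest of their rise, whose total is given above, lay between western-diet and peritumoral liver. The summed level of the list that holds them, Spp1 included, was 229.8 to 400.1 TPM in nonDEN-L-WD, which overlapped the control livers. In peritumoral livers the sum was 359 to 985 TPM, below all tumors. Spp1 itself had 0.61 (adjusted p = 0.27) for western diet alone and 1.97 from peritumoral liver to tumor, and its share in the sum was not separated. For genes of hepatocyte function the last step, from peritumoral liver to tumor, gave Oat -1.82 (adjusted p = 3.9e-08), Cyp2e1 -1.67 (adjusted p = 1.8e-07), Igf1 -1.30 (adjusted p = 5.7e-07) and Cyp2c29 -1.99 (adjusted p = 1.7e-06), against 0.82, 0.90, -0.07 and 0.28 for western diet alone. By their totals given above, Oat, Cyp2e1 and Cyp2c29 were also lower in peritumoral than in western-diet liver, by less than in the last step. The male-biased Mup7 had -0.93 for western diet alone (adjusted p = 0.48), -2.52 from western-diet to peritumoral liver and -1.68 from there to the tumor. Saa1 and Mt1 had -4.15 and -4.44 for western diet and -3.79 and -4.55 for DEN alone, so the control livers were the group that stood apart in these genes, through control livers 2 and 3.

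**Figure D5:**
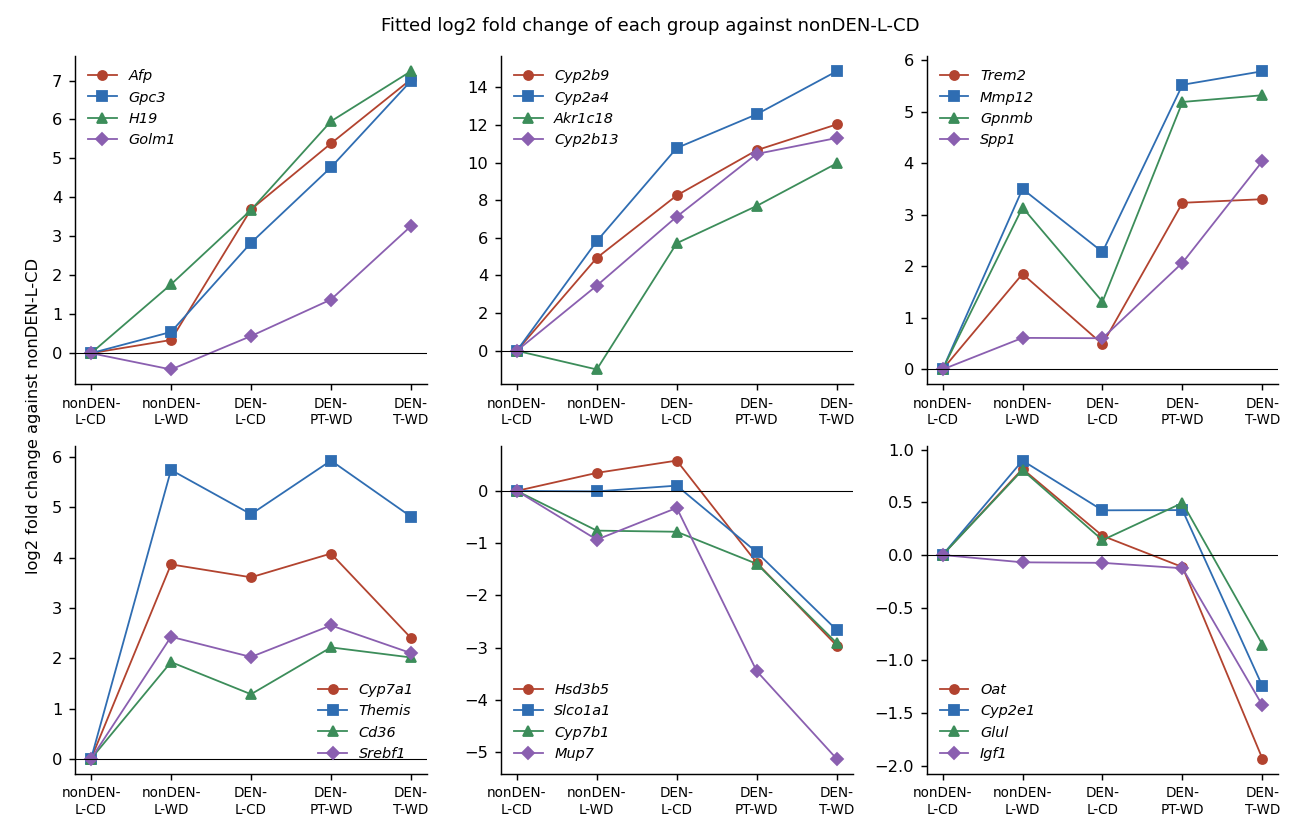
The y axis is the fitted log2 fold change of each group against nonDEN-L-CD, in 5 groups of 3, 4, 4, 8 and 6 samples from left to right, with lines that only join the points of a gene. Afp, Gpc3, H19 and Golm1 are highest in the tumors, Themis and Cyp7a1 are already high in nonDEN-L-WD, and Oat, Cyp2e1, Glul and Igf1 are below the control level in the tumors.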

How the data were processed

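RNA of pulverized whole tissue was made into KAPA mRNA HyperPrep libraries and sequenced single-end on an Illumina HiSeq. The authors aligned the reads to GRCm38 and deposited expected counts per gene, with TPM and FPKM beside them; the submitters' processing notes name FastQC, STAR and RSEM, and neither the strand setting, the gene annotation release nor versions for STAR and RSEM are given in the sources used here. TPM as deposited by the authors served to compare levels between genes, to rank gains and losses of TPM and to sum lists in each sample, with no test, and FPKM was not used. Samples were grouped by their labels.

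Expected counts were rounded to whole numbers, filtered with edgeR's filterByExpr (minimum count 10, 15625 genes kept), scaled by TMM and fitted with edgeR 4.0.16 (R 4.3.3, quasi-likelihood test, Benjamini-Hochberg adjustment) on all 25 samples in 5 groups. The 33 gene lists and the compared groups were chosen with earlier results of these data known, so counts over a list are descriptions with no test. Genes were named by rule: the 12 largest increases and decreases among called genes with a mean of at least 100 normalized counts and no overlap, key genes of the lists with the 2 most changed called members of each, the 5 largest gains and losses of mean TPM, and genes with the largest spread among tumors. Not all of them are described. Exceptions are marked as named after their values were seen. A group at or under 3 counts in every library was set to that floor, and its fold given as a bound.

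Same-numbered samples of the compared groups had correlations of their deviations of -0.08, -0.24 and -0.23, which gave no sign of pairing by number. This check cannot exclude a shared litter, cage or day, and it did not cover tumor with peritumoral samples. Replicates differed by more than sampling noise (chi-square per gene 32.6 or more). On simulated data with 200 genes changed by a log2 of 2, 196 (98%) were recovered and 1 other gene was called. DESeq2 1.42.0 and apeglm 1.24.0 were used for alternatives. Shared sequence was counted as 50-base words in GENCODE M21 transcripts. Sampling noise was thus smaller than the spread between samples, which may be biological or technical.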

Additional observations from a re-analysis of the deposited data

Results flagged for a closer look

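Of 199 described genes, 54 had 1 tumor far from the other 5 by Dixon's gap test, which marks about 1 in 20 groups by chance, and in 47 of them that sample was tumor 5. The described genes include some named for their spread among tumors, so their share cannot be read against that rate, and over all 15625 genes tumor 5 stood apart in 11.2%. Among the described genes it was the highest tumor in 17 and the lowest in 30. The values below are normalized counts of tumor 5.

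Tumor 5 was highest for Slc7a11 (17509), Gsta1 (37230), Gstm1 (173699), Nqo1 (3312) and Pgd (6771), and for the cytochromes Cyp2a5 (151005), Cyp1a1 (1272) and Cyp2f2 (22443). The transporters Abcc4 (8511), Abcb11 (10207), Slc1a1 (1200) and Cd36 (14207) were also highest there, as were Tekt5 (776), Pkm (2475), Bhmt (44327), H2-Aa (4736) and Elovl7 (2655).

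Tumor 5 was lowest for the MAP kinase induced genes Dusp6 (1328), Dusp5 (81.8), Egr1 (383), Etv4 (4.42), Etv5 (156) and Spry4 (125), and for the secreted proteins Alb (637050), Trf (227395), Ahsg (74639) and Apoa1 (55197). Among the genes high in the other tumors it was lowest for Gpc3 (221), Akr1c18 (271), Cyp2b9 (114), Cyp2b13 (8.11) and Tspan8 (473). The others were Sult2a2 (5.16), Glul (7318), Cyp2c29 (3191), Cidea (2.21), Pnpla3 (11.1), Pnpla5 (3.69), Sqle (644), Phgdh (21.4), Psat1 (166), Hnf4a (8277), Trib3 (347), Akr1c6 (7259), Stab2 (1255), Cp (44071) and Il1rn (534). No sample label sets tumor 5 apart, and the reason was not tested.

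In the remaining 7 genes another tumor stood apart: Gm10222 in tumor 6 (4.77 against 0 in the others), Cd8a in tumor 2 (64), Krt7 in tumor 1 (67), and in tumor 3 Lrat (265, the lowest) and the hemoglobins Hbb-bs (33107) and Hba-a1 (11259), and Alas2 (1650), all 3 highest.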

How the results depend on the processing

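The number of genes called was 3168 and ranged from 2976 to 3171 when each of the 9 samples was left out in turn, with 2087 to 2275 higher and 862 to 942 lower. DESeq2's Wald test gave 3144, its size factors 3161, apeglm shrinkage 2839, no filter on low counts 3420 and a fit of the compared groups alone 2914. With no minimum fold change 8439 genes passed, 4342 higher and 4097 lower. Several list counts rose in that setting. Lower members went from 2 to 13 of 18 hepatocyte transcription factors and from 2 to 10 of 24 fatty acid oxidation genes. Higher members of the p53 list went from 5 to 11 of 15. With the replicate number as a block 3117 were called, 2188 higher and 929 lower. No scaling moved the median of all genes by more than 0.04 on the log2 scale.

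Of 163 described genes that were called, 133 were called in all 15 alternative fits and none changed sign. For 9 others, led by tumor 5, DESeq2's Wald test and apeglm gave no adjusted p, and 5 of these (Abcc4, Cyp2a5, Elovl7, Gsta1 and Slc7a11) were called in the other fits. Most of the 25 losses are given in the report beside the gene. The rest were Gstm1, lost without control liver 1 or 3 and in the fit of the compared groups alone, Gpam without tumor 3, Mlxipl without tumor 5, Elovl6 with apeglm, Arntl without control liver 2, Mmp8 without control liver 3, and the low-count or borderline Npas2 and Retnlg, in 9 fits each, and Lamb3, in 5. Tekt5, Slc1a1, Cyp4a12a, Cyp1a1, Cidea and Gpx2 were also lost in the fit of the compared groups alone, and Slc1a1, Myc, Gstm1, Cyp1a1 and Gpx2 with the replicate block. Slc1a1 was also lost without control liver 2. Cdkn1a, which was not called, ranged from -0.033 without control liver 1 to 1.29 without control liver 2. The causes were not tested. Higher members of the drug-metabolizing list went from 3 to 1 in the fit of the compared groups and with the block. They did so too with DESeq2's Wald test and apeglm, where Cyp2a5 and Cyp1a1 had no adjusted p. Those of the stress list went from 8 to 5 in the fit of the compared groups and with the block, and those of the bile acid list from 5 to 2 with apeglm.

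The design limits what can be read from the comparison: only 3 control livers were sequenced, each with a large say in genes of uneven expression, and tumor 5 stands apart. In acute phase and metallothionein genes control livers 2 and 3 stand apart from control liver 1 and from the other non-tumor groups. Carcinogen, diet and tissue change together. Genes with near-identical copies depend on how the authors' counting divided shared reads.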
